A study of Homo sapiens with 2 samples.

Results

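The genes described here are GABARAP, GABARAPL1, GABARAPL2, MAP1LC3A, MAP1LC3B, SQSTM1, BECN1, ATG5 and ATG12, 9 of the 32742 genes in the table. They were chosen by name, as genes of the ATG8 protein family and of autophagy, and because GABARAP was known to have one of the highest ratios between the libraries. Their ratios are therefore given as descriptions, with no test. WaGa is an established human line of Merkel cell carcinoma, a neuroendocrine skin cancer, and domatinostat is an inhibitor of class I histone deacetylases. There were 2 samples with 1 library each, WaGa cells treated with domatinostat and WaGa cells with no treatment, both grown in RPMI medium and barcoded without an isolation step on the 10x 3′ platform. Neither dose nor duration is stated, and the labels do not say whether the untreated cells received solvent.

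Autophagy encloses cell material in a double membrane, the autophagosome, and delivers it to the lysosome. The ULK1 kinase complex starts the process, the Beclin 1 and VPS34 lipid kinase complex marks the membrane, and a conjugation machinery that includes ATG12 and ATG5 attaches ATG8 proteins to it. The human ATG8 proteins form the LC3 branch and the GABARAP branch, and both recruit cargo receptors such as p62, the product of SQSTM1. The amount of an autophagy transcript does not measure the flow of material through the pathway.

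The ending of a cell's name (Treated or Ctrl) is the only tie between the cell and its sample, and each library is named by that label. Unique molecular identifiers (UMIs) each stand for 1 captured transcript. Summed over 6679 cells, the library labelled treated had 60160108 UMIs (median 8578 per cell), and over 4137 cells the library labelled untreated had 45562976 (median 11125 per cell). In all, 48 barcodes occurred in both libraries. CDKN1A is a cell cycle inhibitor gene known to be induced by drugs of this class. It had 39.4 UMIs per 1000000 UMIs of the library (CPM) in the library labelled treated and 97.9 CPM in the library labelled untreated. This direction is opposite to that induction. It rests on 1 gene in 1 library each and its cause was not tested, so every direction below follows the label only. Of the 10 Merkel cell carcinoma markers, KRT20 had 248.0 and 295.5 CPM, CHGA 1221 and 886.3 CPM, ATOH1 6.45 and 6.34 CPM and NEUROD1 only 7 and 19 UMIs in the libraries labelled treated and untreated. SOX2 had the highest ratio of the 10, at 1.57, with 131.6 and 83.7 CPM. Of markers of other cell types, the T cell genes CD3D and CD2 and the B cell gene MS4A1 had 0 UMIs in both libraries. CD79A had 74 and 194 UMIs, CD14 36 and 66, COL1A1 72 and 173 and PMEL 21 and 141, labelled treated and untreated. Each of the 4 was 1.5-fold or more lower under the treated label, as were 12.2% of genes with at least 100 UMIs. The fibroblast gene DCN was lower too, with 1004 and 1150 UMIs and a ratio of 0.661. The endothelial gene CLDN5 had 396 and 298 UMIs, a ratio of 1.01, and the myeloid gene LYZ had 7 and 4 UMIs. The keratinocyte genes KRT10 and SFN had 313.2 and 42.9 CPM in the library labelled treated and 310.6 and 88.3 CPM in the library labelled untreated. Summed, the Merkel cell carcinoma markers had 2240 and 1858 CPM, mostly CHGA in the library labelled treated, and the 4 keratinocyte markers 358.8 and 403.3 CPM, labelled treated and untreated, while the keratin gene KRT14 had 1 and 5 UMIs. The 4 fibroblast markers summed to 17.95 and 29.3 CPM and the other 6 sets, endothelial highest at 6.60 and 6.56 CPM, to less, and the part of other cell types in the results was not tested.

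GABARAP encodes a small ubiquitin-like protein, first described as a partner of the GABA type A receptor, that is conjugated to autophagosome membranes. The first 300 bases of its coding sequence are shown because most of them also occur in a transcript of another annotated gene, and a read from such a stretch cannot be given to 1 gene by its sequence alone. The sequence is that of transcript GABARAP-201 in GENCODE 29 (build GRCh38, chromosome 17, minus strand), whereas the authors' table was made with hg19. Capitals mark bases inside stretches of 50 bases that also occur in a GENCODE transcript of another gene.
GABARAP: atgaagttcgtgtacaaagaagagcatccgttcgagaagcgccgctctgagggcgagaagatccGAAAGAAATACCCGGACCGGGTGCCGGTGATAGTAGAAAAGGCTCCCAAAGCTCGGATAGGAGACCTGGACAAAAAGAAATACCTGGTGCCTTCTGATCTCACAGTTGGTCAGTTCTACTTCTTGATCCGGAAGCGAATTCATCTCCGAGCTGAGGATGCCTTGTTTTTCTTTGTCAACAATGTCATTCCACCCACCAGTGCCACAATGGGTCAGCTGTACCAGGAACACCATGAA

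Of all 354 coding bases, 290 or 81.9% lay in shared stretches, 236 of them among the 300 shown. A further 427 of the 840 bases after the stop codon did so, and the bases nearest to the end of the transcript did not. The main partner was the gene named AC120057.2 in GENCODE 29, which held 27.3% of all 50-base words of the GABARAP transcripts.

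The ATG8 genes went different ways between the libraries. GABARAP was higher in the library labelled treated and MAP1LC3A was lower, while GABARAPL2 and MAP1LC3B lay within 1.5-fold of an equal level. GABARAP had 2475 UMIs or 41.1 CPM (95% exact Poisson interval 39.5 to 42.8) in the library labelled treated, against 837 UMIs or 18.4 CPM (17.2 to 19.7) in the library labelled untreated. The ratio of treated to untreated was 2.24, with a 95% exact interval of 2.07 to 2.43, and stood at rank 33 from the highest of the 12812 genes with at least 100 UMIs over both libraries. Of those 12812 genes, 3.17% were higher in the library labelled treated by 1.5-fold or more and 0.468% by 2-fold or more. Each condition had a single library and hence no replicates, so every interval given covers counting error only.

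MAP1LC3A encodes LC3A, an ATG8 protein of the LC3 branch. It had 3651 UMIs or 60.7 CPM in the library labelled treated, against 4384 UMIs or 96.2 CPM in the library labelled untreated. The ratio was 0.631 (0.604 to 0.659). Of the 8 chosen genes with at least 100 UMIs, which leave out GABARAPL1 alone, MAP1LC3A was the only 1 lower by 1.5-fold or more and 0 were lower by 2-fold or more, against 12.2% and 5.94% of all genes. It was no longer past 1.5-fold in cells called G1 or G2/M, at 0.707 (0.579 to 0.860) and 0.759 (0.701 to 0.821), nor in cells of 3000 to 6000 UMIs or of 16000 or more, at 0.683 and 0.774, and stayed lower in each. The intervals of the 2 levels did not overlap.

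GABARAPL2, the GABARAP branch member also called GATE-16, had 250.5 CPM (246.5 to 254.5) in the library labelled treated and 267.0 CPM (262.2 to 271.8) in the library labelled untreated, a ratio of 0.938 (0.916 to 0.961). MAP1LC3B, which encodes LC3B, the ATG8 protein most used as an autophagosome marker, had 106.2 CPM (103.7 to 108.9) in the library labelled treated and 118.3 CPM (115.2 to 121.5) in the library labelled untreated, a ratio of 0.898 (0.866 to 0.931). Both differences were beyond counting error and small. GABARAPL1, the closest relative of GABARAP, was almost absent, with 1 UMI in the library labelled treated and 4 in the library labelled untreated, a ratio of 0.189 with an interval of 0.00385 to 1.91 that spans an equal level. The remaining family rows were scarce too. MAP1LC3B2 had 113 and 102 UMIs, GABARAPL3 had 2 and 0 and MAP1LC3C had 0 and 1, in the libraries labelled treated and untreated.

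**Figure D1:**
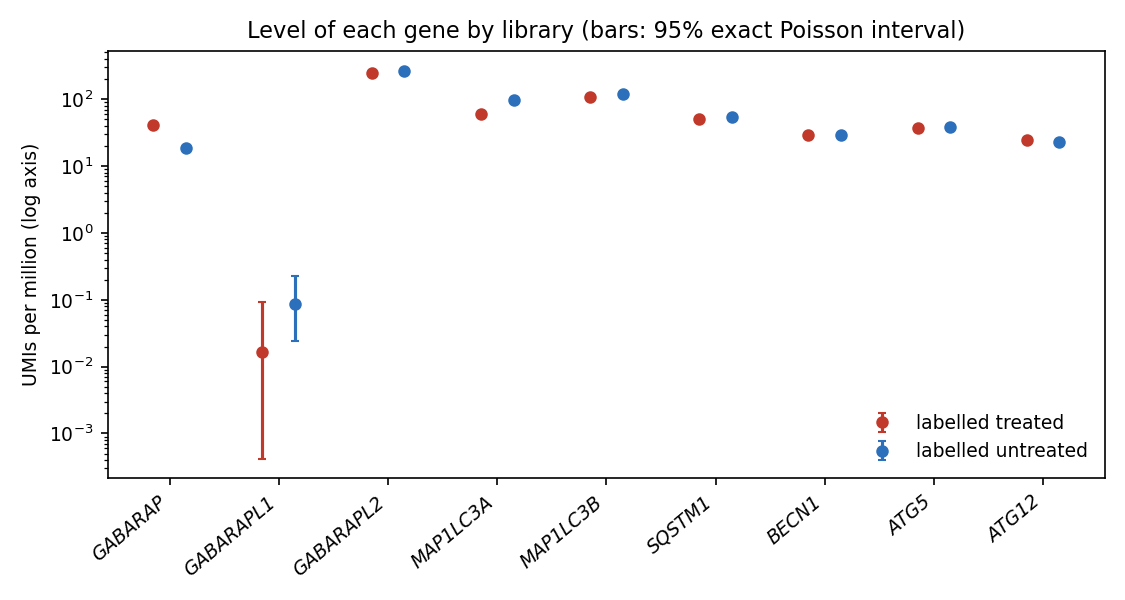
Level of each of the 9 genes in CPM (log axis) in the library labelled treated (red) and the library labelled untreated (blue), 1 library each, with bars for the 95% exact Poisson interval. GABARAP stands higher in the library labelled treated (41.1 and 18.4 CPM) and MAP1LC3A lower (60.7 and 96.2 CPM), while GABARAPL1 lies near 0 in both.

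The family as a whole was not higher in the library labelled treated. The 8 ATG8 rows together had 460.5 CPM in the library labelled treated and 502.2 CPM in the library labelled untreated, a ratio of 0.917 (0.901 to 0.933). Without GABARAP they had 419.4 and 483.9 CPM, a ratio of 0.867 (0.851 to 0.883). A UMI is counted at the 3′ end whatever the length of the transcript, but capture differs between genes, so shares within the family are compared between libraries and not between genes. GABARAP gave 8.93% (8.60% to 9.28%, exact Clopper-Pearson) of family UMIs in the library labelled treated and 3.66% (3.42% to 3.91%) in the library labelled untreated. MAP1LC3A gave 13.2% (12.8% to 13.6%) in the library labelled treated and 19.2% (18.7% to 19.7%) in the library labelled untreated. The shares of GABARAPL2 were 54.4% and 53.2%, and those of MAP1LC3B 23.1% and 23.6%.

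SQSTM1 encodes p62, a receptor that ties ubiquitinated cargo to ATG8 proteins. It had 3081 UMIs or 51.2 CPM (49.4 to 53.1) in the library labelled treated and 2437 UMIs or 53.5 CPM (51.4 to 55.7) in the library labelled untreated. BECN1, which encodes the Beclin 1 scaffold of the VPS34 complex, had 28.8 CPM (27.4 to 30.1) in the library labelled treated and 28.7 CPM (27.2 to 30.3) in the library labelled untreated. ATG5, which forms a conjugate with ATG12 that helps to lipidate ATG8 proteins, had 36.9 CPM (35.4 to 38.5) in the library labelled treated and 38.9 CPM (37.1 to 40.7) in the library labelled untreated.

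ATG12, a ubiquitin-like protein gene, had 24.3 CPM (23.1 to 25.6) in the library labelled treated and 23.1 CPM (21.7 to 24.5) in the library labelled untreated. The ratios were 0.958 (0.908 to 1.01) for SQSTM1, 1.00 (0.931 to 1.08) for BECN1, 0.9495 (0.892 to 1.01) for ATG5 and 1.05 (0.973 to 1.14) for ATG12. All 4 intervals include 1, so no difference was detectable for these genes over all cells.

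The library labelled untreated was deeper per cell, so both GABARAP and MAP1LC3A were also compared in cells of like depth. In cells of 3000 to 6000 UMIs, GABARAP had 37.1 CPM in the library labelled treated and 21.2 CPM in the library labelled untreated, a ratio of 1.75 (1.30 to 2.40). In cells of 16000 or more it had 44.9 and 18.3 CPM, a ratio of 2.45 (2.02 to 2.99). Over the 5 depth bins from 3000 UMIs up, GABARAP ranged between 37.1 and 44.9 CPM in the library labelled treated and between 16.7 and 21.2 CPM in the library labelled untreated, so the 2 ranges were apart. MAP1LC3A ranged between 56.4 and 65.2 CPM in the library labelled treated and between 82.9 and 101.4 CPM in the library labelled untreated, again apart, with ratios between 0.566 and 0.774. For SQSTM1, BECN1, ATG5 and ATG12 the ranges of the libraries overlapped, but single bins lay apart from 1. SQSTM1 was at 0.835 (0.755 to 0.924) in cells of 9000 to 12000 UMIs and 0.811 (0.728 to 0.902) in cells of 12000 to 16000. BECN1 was at 0.831 (0.703 to 0.985) in cells of 6000 to 9000 UMIs but 1.19 (1.03 to 1.37) in cells of 12000 to 16000, and at 0.736 (0.540 to 0.994) in cells called G1. ATG12 was at 1.40 (1.01 to 1.99) in cells of 3000 to 6000. MAP1LC3B had its lowest ratio, 0.674, and GABARAPL2 its lowest, 0.824, among the 5 bins.

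**Figure D2:**
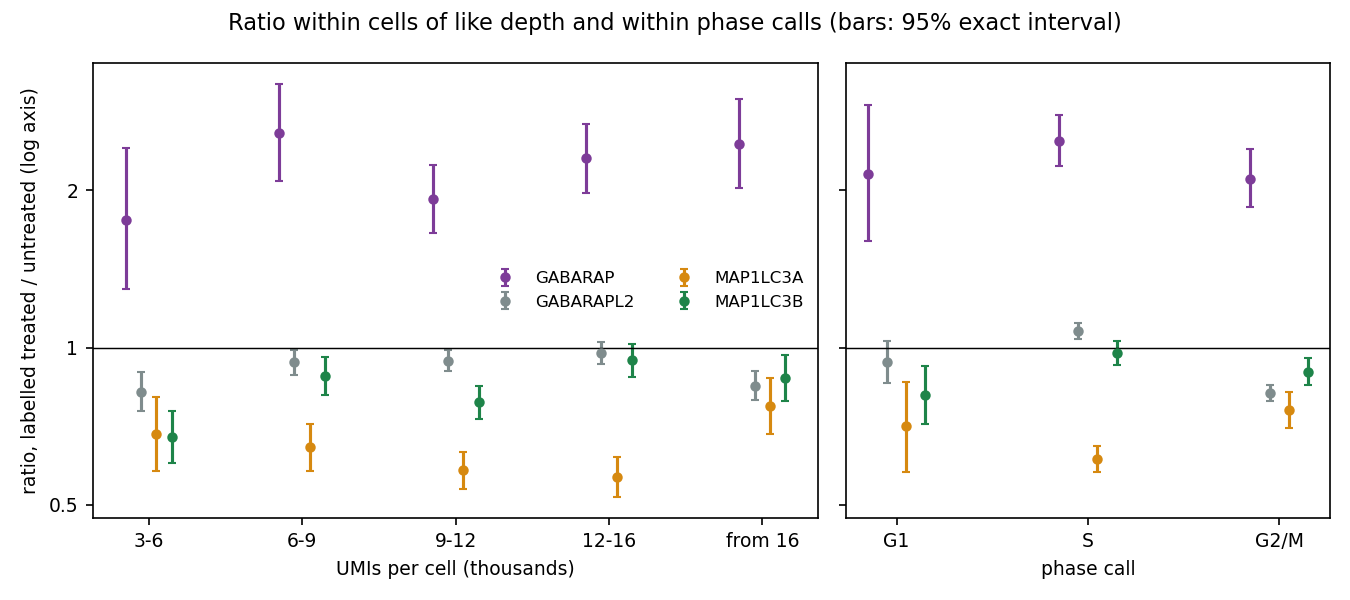
Ratio of labelled treated over labelled untreated CPM (log axis) for GABARAP, GABARAPL2, MAP1LC3A and MAP1LC3B within bins of UMIs per cell (left) and within cells called G1, S or G2/M (right), with bars for the 95% exact interval of counting error. GABARAP lies above 1 in every bin shown, between 1.75 and 2.57, and MAP1LC3A below 1, between 0.566 and 0.774.

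The GABARAP difference did not lie in a few cells with many UMIs. To compare cells at 1 depth, each was thinned to 4351 UMIs. A GABARAP UMI was then present in 16.3% (15.4% to 17.3%) of 6012 cells labelled treated and in 8.71% (7.84% to 9.64%) of 3892 cells labelled untreated. Unthinned, the shares were 29.8% and 17.8%. With 1 cell line no cell type lacking these genes was at hand, so the part of free RNA in such shares could not be gauged. A cell held at most 3 GABARAP UMIs after thinning in the library labelled treated and at most 2 in the library labelled untreated. The variance divided by the mean was 1.02 and 1.00, close to the value of 1 that random counting gives. The means were only 0.18 and 0.091 UMIs per thinned cell, labelled treated and untreated. At such counts these values cannot tell a difference in all cells from one in a part of them. MAP1LC3A had a UMI in 23.0% of thinned cells labelled treated and 33.0% of thinned cells labelled untreated, with variance to mean ratios of 1.03 and 1.07. The highest such ratio among the 9 genes was 1.17, for MAP1LC3B in the library labelled untreated, where its share of cells with 0 UMIs was 61.5% against 59.0% for random counts of the same mean.

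Correlations between the 9 genes over cells were near 0, and counts this sparse cannot show whether the genes go together. Over the 36 pairs, Pearson's r across thinned cells ranged from -0.0236 to 0.0538 in the 6012 cells labelled treated and from -0.0561 to 0.0886 in the 3892 cells labelled untreated. The highest value belonged in both libraries to MAP1LC3B with GABARAPL2. The pairs include those of GABARAPL1, which had a UMI in 0.0166% and 0.0514% of thinned cells, labelled treated and untreated. Cells of a library share its chemistry and the counts are sparse, so these values are descriptions and too weak to be findings. A thinned cell held UMIs of 1.99 of the 9 genes on average in the library labelled treated and of 2.05 in the library labelled untreated.

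Levels were also compared by phase calls, which rank cells by S and G2/M transcripts and do not measure division. In thinned cells, 5.67% of cells labelled treated and 9.99% of cells labelled untreated were called G1, and 45.8% and 33.5% were called G2/M. SQSTM1 was lower in cells called G2/M than in cells called S, in both libraries alike. It had 58.8 CPM in G1, 63.1 in S and 39.7 in G2/M in the library labelled treated, and 61.5, 62.9 and 38.9 CPM in the library labelled untreated. Within each phase call the levels of the 2 libraries had overlapping intervals.

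MAP1LC3B was highest in cells called G1, with 151.8 CPM in G1, 108.5 in S and 99.3 in G2/M in the library labelled treated, and 187.0, 111.1 and 110.5 CPM in the library labelled untreated. MAP1LC3A was lowest in cells called G2/M, at 62.8, 72.6 and 49.8 CPM in the library labelled treated and 88.9, 118.5 and 65.7 CPM in the library labelled untreated. The order of the phases for both genes was the same in the 2 libraries, and G2/M was apart from S beyond counting error except for MAP1LC3B in the library labelled untreated. GABARAP varied less, with 47.1, 44.0 and 38.6 CPM in the library labelled treated and 21.9, 17.7 and 18.3 CPM in the library labelled untreated, and its ratio was 2.15 (1.596 to 2.91) in G1, 2.48 (2.22 to 2.78) in S and 2.11 (1.86 to 2.39) in G2/M. GABARAPL2 had a ratio of 1.08 (1.04 to 1.12) in cells called S and 0.819 (0.789 to 0.849) in cells called G2/M, so its direction depended on the phase. Depth moved with the calls, with medians of 6936 UMIs in G1, 8476 in S and 10392 in G2/M in the library labelled treated and of 8289, 11002 and 13611 in the library labelled untreated, and its part in these levels was not tested.

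**Figure D3:**
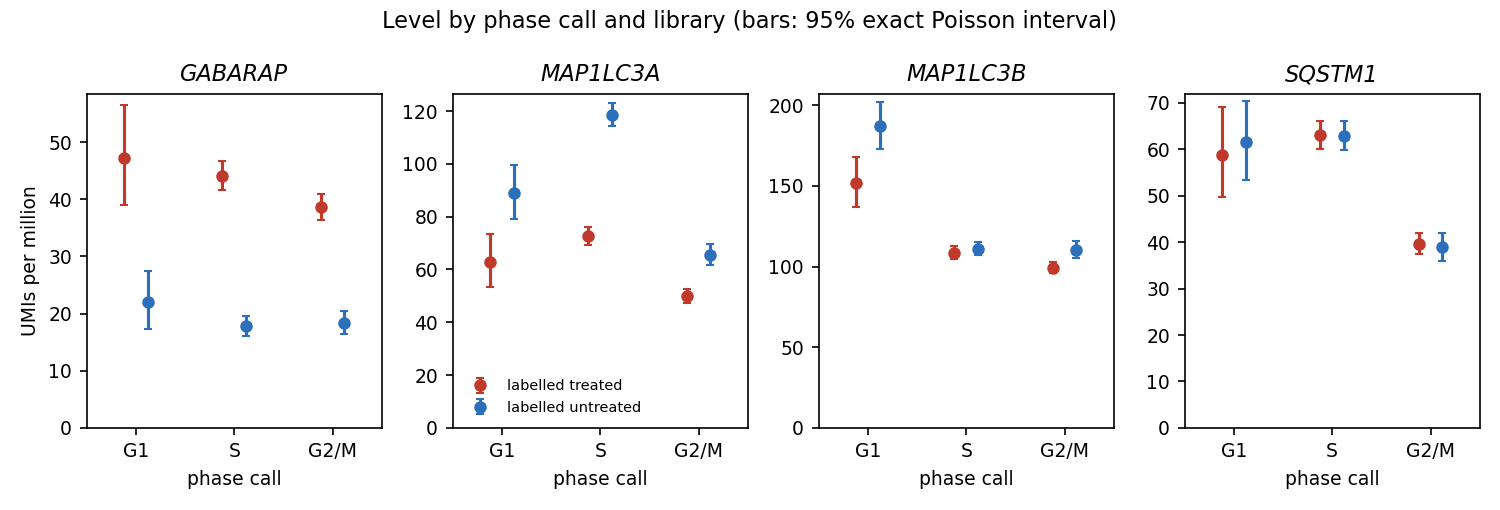
Level of GABARAP, MAP1LC3A, MAP1LC3B and SQSTM1 in CPM by phase call, in the library labelled treated (red) and the library labelled untreated (blue), with bars for the 95% exact Poisson interval. SQSTM1 is near 39 CPM in G2/M cells of both libraries (39.7 and 38.9), whereas GABARAP is higher in the library labelled treated in each phase.

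The genes whose pattern was most like that of GABARAP over the 6 groups of cells formed by library and phase call were MRPS24, ATP5EP2, TRAPPC5, PRICKLE4 and GTF2IRD2. Likeness was the distance between log2 CPM values centred on each gene's mean, among the other 9716 genes with at least 500 UMIs, and was 0.194 for MRPS24, 0.370 for ATP5EP2, 0.372 for TRAPPC5, 0.411 for PRICKLE4 and 0.427 for GTF2IRD2. MRPS24, a mitochondrial ribosomal protein gene, had a ratio of 2.31, and the other 4 had ratios between 1.85 and 2.37. The 3 groups of each library share that library, so the 6 groups are not independent. The difference between the libraries enters the distance, so ratios like that of GABARAP follow from the choice of these genes and are no separate result.

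Of these 5 genes, 4 could be matched by symbol in GENCODE 29, and all 4 shared sequence with another gene near the ends of their transcripts. In the last 500 bases of the transcripts, the share of 50-base words that also occur in transcripts of another gene was 41.5% for GABARAP, 46.6% for MRPS24, 49.0% for TRAPPC5, 80.9% for PRICKLE4 and 58.1% for GTF2IRD2. These shares pool all annotated transcripts of a gene. In all, 656 of the 11452 genes with at least 100 UMIs and a single match by symbol had a share of 25% or more. GABARAP and these 4 genes are among them. The 4 were picked for likeness to GABARAP, so their sharing is a description. In the single transcript GABARAP-201, 87 of the last 500 bases lay in shared stretches, and the bases nearest to its 3′ end did not. The main partner of MRPS24 was URGCP-MRPS24, a joined transcript of both neighbours, which had 1 UMI in the library labelled treated and 0 in the library labelled untreated. Among the other 8 genes of the chosen set the share was highest for MAP1LC3B at 4.60%, and it was 0 for MAP1LC3A, GABARAPL2, SQSTM1, BECN1 and ATG5.

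This measure was chosen after the values of GABARAP were seen, and it was then taken over all 11452 genes with at least 100 UMIs that had a single match by symbol. Of 656 genes with 25% or more of their last 500 bases shared, 21 or 3.20% were 2-fold or more higher in the library labelled treated, against 26 or 0.241% of the 10796 genes with less. At 1.5-fold the shares were 10.2% and 2.45% higher, and 7.62% and 11.97% lower. Without histone genes the 2-fold shares were 2.32% and 0.205%, and among genes with at least 500 UMIs they were 2.35% and 0.0819%. Each 2-fold count of the shared class includes GABARAP, chosen for its ratio, and MRPS24, TRAPPC5 and GTF2IRD2, picked for likeness to it. The contrast is thus drawn in part from genes already known to be high. It was not recounted without them, so it is given as a description only. The part of shared sequence in the GABARAP ratio was not tested.

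**Figure D4:**
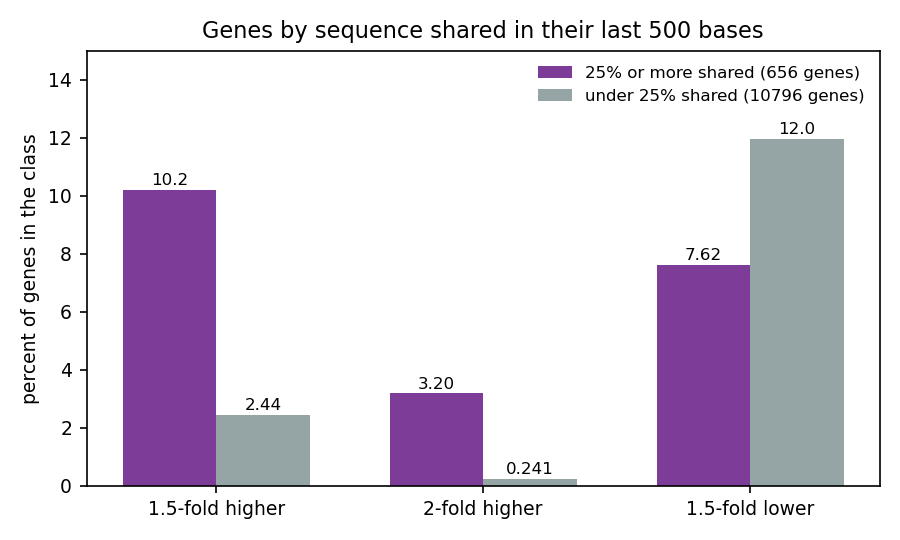
Percent of genes that were higher by 1.5-fold or by 2-fold, or lower by 1.5-fold, in the library labelled treated, for genes with 25% or more of the 50-base words of their last 500 transcript bases shared with another gene (purple, 656 genes) and genes with less (grey, 10796 genes). The 2-fold higher share is 3.20% in the class of shared sequence, which counts GABARAP by its pooled transcripts, and 0.241% in the other. The shared class also counts MRPS24, TRAPPC5 and GTF2IRD2, which were picked for likeness to GABARAP. In the single transcript GABARAP-201, 87 of the last 500 bases lie in shared stretches.

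The 2 protein-coding genes next to GABARAP on chromosome 17 had ratios nearer to 1. These were PHF23, a PHD finger gene, with 1925 UMIs in the library labelled treated and 1241 UMIs in the library labelled untreated and a ratio of 1.18 (1.09 to 1.26), and CTDNEP1, a nuclear envelope phosphatase gene, with 3918 and 2405 UMIs and a ratio of 1.23 (1.17 to 1.30). Of the 5 protein-coding genes on each side in the RefSeq order, 9 had at least 100 UMIs, and 8 of them had ratios between 0.741 for ACADVL and that of CTDNEP1. YBX2 was farther from 1 than GABARAP, at 0.275 (0.191 to 0.390) from 45 and 124 UMIs, labelled treated and untreated. The remaining one, SLC2A4, had 1 UMI in the library labelled treated and 5 in the library labelled untreated.

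The wider pathway was described through 11 lists with 146 genes in the table, of which 136 had at least 100 UMIs. At 1.5-fold, 1 of the 136 was higher and 7 were lower in the library labelled treated, fewer than the 3.17% and 12.2% over all genes would give. Those shares include scarcer genes. At a minimum of 500 UMIs, 1 of 122 listed genes was higher and 3 were lower. Of genes matched by symbol with that minimum, 5.97% of the class of shared sequence and 6.13% of the other were lower, and 7.46% and 1.97% were higher. All-gene shares beside the lists below carry the same limit. The median log2 ratio was 0.01 over the 136 genes and -0.01 over all 12812 genes. The listed genes thus centred near an equal level, as all genes did.

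Of the early machinery, the 5 genes of the ULK1 complex had a median log2 ratio of 0.23, from ATG101 (65.3 CPM in the library labelled treated and 80.2 CPM in the library labelled untreated, ratio 0.814) to the kinase gene ULK1 itself (6.12 and 4.39 CPM, ratio 1.39). The single gene past 1.5-fold on the higher side was ATG14, which directs VPS34 to the sites where autophagosomes form. It had 582 UMIs or 9.67 CPM in the library labelled treated and 275 UMIs or 6.04 CPM in the library labelled untreated, a ratio of 1.603 (1.39 to 1.86). The ratio was 1.46 in cells of 7000 to 12000 UMIs, 1.31 in cells called G1 and 1.23 with a pseudocount. ATG14 was then not past 1.5-fold. In cells called G2/M 4 listed genes were, and no share over all genes was computed there. The lowest of the list that holds ATG14 was AMBRA1 at 0.847 (0.667 to 1.08).

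Among 9 measured genes of membrane supply, the lipid transfer gene ATG2A had a ratio of 1.49 (1.29 to 1.72) and the phosphoinositide-binding WIPI1 of 0.680 (0.571 to 0.811). All 9 genes of ATG8 conjugation and processing lay within 1.5-fold, from the protease gene ATG4B at 0.815 to ATG16L1, which anchors the conjugate of ATG12 and ATG5, at 1.18. None of the 15 cargo receptor genes was 1.5-fold apart, with TEX264, a receptor for the endoplasmic reticulum, lowest at 0.716 and NBR1, a relative of p62, highest at 1.38.

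Of the late machinery, VAMP8, a SNARE of autophagosome and lysosome fusion, had 32 UMIs in the library labelled treated and 72 in the library labelled untreated, a ratio of 0.337 (0.215 to 0.517), and EPG5, a tether of the same step, had a ratio of 1.44. Of 26 measured lysosomal genes, 1 was lower by 1.5-fold or more, the protease gene CTSH at 0.219 (0.166 to 0.285), where 12.2% of all genes were, and MCOLN1, a lysosomal calcium channel gene, was highest at 1.30. CTSL was listed with 0 UMIs in both libraries, and CLN3 with 0 in the library labelled treated and 1 in the library labelled untreated. A limit of 3 UMIs is 0.0499 CPM in the library labelled treated and 0.0658 CPM in the library labelled untreated. The 16 proton pump genes had ratios between 0.878 for ATP6AP2 and 1.23 for ATP6V1H.

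Of 26 measured control genes, 3 were lower by 1.5-fold or more in the library labelled treated, a share near the 12.2% of all genes. TFEB, a transcription factor that activates lysosomal and autophagy genes, had 343 UMIs or 5.70 CPM in the library labelled treated and 489 UMIs or 10.7 CPM in the library labelled untreated, a ratio of 0.531 (0.461 to 0.611). PRKAB2 and PRKAA2, subunits of the energy sensor AMPK, had ratios of 0.539 (0.440 to 0.659) and 0.660 (0.598 to 0.729). MTOR, the kinase that holds ULK1 inactive when nutrients are plentiful, was highest at 1.38 (1.23 to 1.55).

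The lowest list by median was that of NRF2, the transcription factor freed when p62 binds its inhibitor KEAP1. Its median was -0.31 on the log2 scale over 8 measured genes, and the lowest 25% of all genes lay below -0.27. Of the 8, 5 had ratios below 1 and 3 above it. Lower by 1.5-fold or more were 2 of the 8, against 12.2% of all genes. HMOX1, the heme oxygenase gene, had 55 UMIs in the library labelled treated and 268 in the library labelled untreated, a ratio of 0.155 (0.114 to 0.208). NQO1, a quinone reductase gene, had a ratio of 0.639 (0.540 to 0.756), and KEAP1 was highest at 1.17 (1.10 to 1.24). SQSTM1, itself a known NRF2 target, was within counting error of an equal level, as given above.

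**Figure D5:**
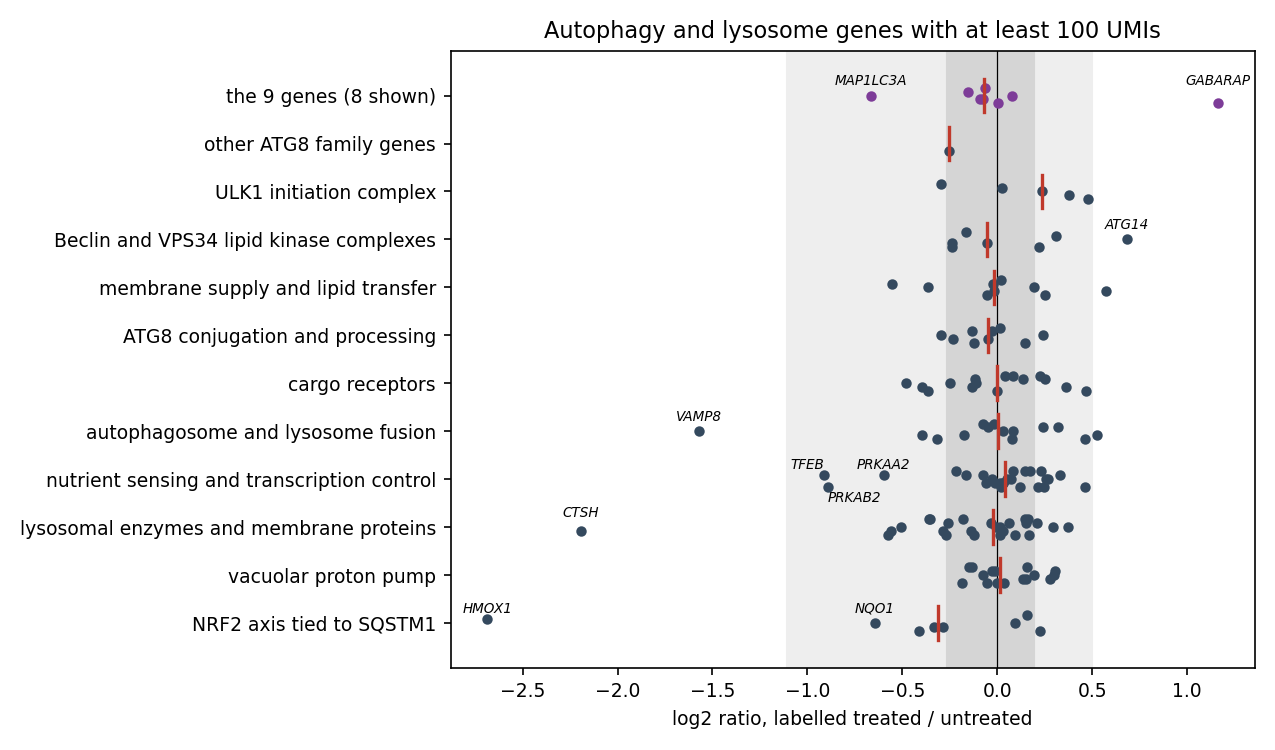
Log2 ratio of labelled treated over labelled untreated CPM for the chosen genes (top) and for the 11 lists, genes with at least 100 UMIs, with red bars at the medians; dark and light grey bands hold the middle 50% and 90% of all 12812 genes. Names mark genes at least 1.5-fold apart, of which GABARAP and ATG14 are the only 2 on the higher side.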

How the data were processed

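Per the labels' protocols, suspension cells went straight to 10x 3′ barcoding, and libraries were sequenced on an Illumina HiSeq. Per the submitters' processing notes, hg19, Cell Ranger and Seurat were used; software versions, annotation and filters on cells are not given in the sources used here. Natural log values were deposited by the authors in 1 table for both libraries, and back-transformed they summed to 10000 in each of the 10816 cells. The smallest value of a cell was taken as 1 UMI, and 100% of the values were then whole multiples within 1e-06. No cell was removed, and doublets were not called.

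UMIs were summed per gene and library and divided by the library total. Ratios and shares have 95% exact Clopper-Pearson intervals. Genes needed at least 100 UMIs over both libraries. PCR duplicates are collapsed by UMIs, but cells of 1 library are not independent cultures. For shares of cells, 667 cells labelled treated and 245 labelled untreated were too shallow to be thinned to 4351 UMIs. Phases were called with scanpy 1.11.5 from 41 S and 53 G2/M genes, scored over both libraries. Listed symbols absent from the table were looked up among RefSeq synonyms. The ratio step was tested on simulated data. The chosen genes, the 11 pathway lists and the named-gene rule were set with earlier results of these data known. The rule names the extremes of each list, every gene 1.5-fold apart, the 5 genes most like GABARAP and its 5 protein-coding neighbours on each side. Marker genes, CTSL and CLN3 were named after their values were seen. Alternatives changed scaling, weighting, pseudocount, cells and minimum counts. Python 3.11.15, numpy 2.4.6, scipy 1.17.1 and pandas 2.3.3 were used.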

Additional observations from a re-analysis of the deposited data

How the results depend on the processing

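No paired analysis was possible because each group had 1 library, and for the same reason no library could be left out. The GABARAP ratio of 2.24 ran from 1.80 with a pseudocount of 0.1 per 10000, which shrinks ratios of weakly counted genes by construction, to 2.48 in cells called S; it was 2.25, 2.26 and 2.19 under the other scalings and weightings, 2.21 without the 5% of cells with the most UMIs and 2.12 in cells of 7000 to 12000 UMIs. MAP1LC3A stayed between 0.601 and 0.759 over the same settings. The depth bins given above are not among these settings and spread wider. Their ratios lay between 1.75 and 2.57 for GABARAP and between 0.566 and 0.774 for MAP1LC3A. GABARAPL2 turned to 1.08 in cells called S, against 0.938 over all cells; the cause was not tested. GABARAP shares of cells with a UMI grew with depth by construction, to 28.4% and 14.5% when thinned to 8578 UMIs and 29.8% and 17.8% unthinned, labelled treated and untreated. Of the pathway genes, 1 was at least 1.5-fold higher and 7 lower in the main setting. The higher count was 0 with the pseudocount and in cells of 7000 to 12000 UMIs, 2 in cells called S and 4 in cells called G2/M. The lower count was 0 with the pseudocount, 2 in cells called G1, where 77 genes had enough UMIs, 3 at a minimum of 500 UMIs and 12 over the 142 genes with any UMI in both libraries. For the pseudocount, the subsets of cells and the genes with any UMI, no share over all genes was computed. Those counts thus have no background beside them. Leaving out genes of shared 3′ sequence, an alternative chosen after seeing the data, kept the higher and the lower count within 1.5 times. Depth limits the scarce genes most: at 1 and 4 UMIs, nothing can be said of GABARAPL1.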
